A study of Mus musculus with 53 samples.

Results

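The genes described here are 6 components of the bone morphogenetic protein (BMP) pathway: the ligands Bmp2 and Bmp4, the target genes Id1, Id2 and Id3, and Smad6, which is both a target and an inhibitor. They were taken by name, not by their signal, from the 21911 protein-coding genes of the mouse annotation. Each gene was examined through every CUT&RUN peak that touched its gene body or the 50 kb on either side, in 35 peak lists covering the transcription factors (TFs) SOX2 and GATA6 and the histone modifications H3K27ac and H3K4me1. CUT&RUN cuts DNA next to an antibody-bound protein with a tethered nuclease, so a peak marks a stretch of chromatin carrying that protein or modification. H3K4me1 is found at enhancers in general and H3K27ac at active enhancers and promoters.

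All libraries came from SGGC cells, E14JU mouse embryonic stem cells in which SOX2 is fused to GFP and GATA6 to mCherry from their own loci, with the resistance cassettes left in place. Only the clones B9 and B12 were profiled. Cells were sorted after growth in 2iLIF (inhibitors of MEK and GSK3 with the cytokine LIF), in NACL (N2B27 base medium with activin, a GSK3 inhibitor and LIF), or as naive endoderm (nEnd), a cultured primitive endoderm (PrE) cell type kept in RACL medium. From KOSR, a medium with knockout serum replacement, a SOX2+ population and a double-positive (DP) population with both reporters were sorted, in experiments labelled A, A1 and B that all used clone B12. SOX2 was profiled in 2 libraries of 2iLIF, 2 of NACL, 3 of SOX2+ and 3 of DP cells, and GATA6 in 3 libraries of DP and 2 of nEnd cells. Each histone mark was profiled in 2 libraries each of 2iLIF, NACL, SOX2+ and nEnd cells and in 1 of DP cells. The remaining library of each mark carried contradictory labels, DP in the title and SOX2+ in the source name, and enters no comparison. The NACL SOX2 library of clone B12 has a source name reading IgG and was placed by its title, and DP GATA6 A carries a suffix of unstated meaning. Both nEnd H3K4me1 libraries came from clone B9, so for that mark the nEnd values rest on that clone alone, whereas 2iLIF and NACL had both clones.

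BMP ligands bind paired type I and type II receptor kinases, which phosphorylate SMAD1, SMAD5 and SMAD9. These join SMAD4 in the nucleus and activate a small set of direct targets, among which the Id genes are the best known. Id proteins lack a DNA-binding domain and hold E proteins inactive, and in mouse embryonic stem cells BMP and Id proteins are known to help LIF keep cells undifferentiated.

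Peak strength was read from the highest signal within each peak, which is on a scale of its own in every library, and was therefore turned into a rank within the library, where rank 1 is the strongest peak. For comparisons between libraries each gene received a gene percentile, the position of its strongest peak among those of all 21911 genes, so that 100 would be the top. Genes with no peak tie at a common low value that depends on how many genes of that library lack peaks, so a percentile without a peak carries no information on strength. Libraries differed widely in the number of peaks called, from 1378 to 29623 for SOX2, from 1391 to 32510 for GATA6, from 13514 to 401853 for H3K27ac and from 18627 to 130749 for H3K4me1, and their read depth is unknown. The fewest SOX2 and GATA6 peaks were in DP cells, at most 5320 and 8316, whereas pluripotent cells had at least 8203 SOX2 peaks and nEnd at least 24223 GATA6 peaks. As cultures of many cells were profiled, a smaller share of cells carrying a peak and a weaker signal in each cell cannot be told apart. In the H3K27ac data 7 of 8 PrE marker loci (all but Gata4) lay higher in nEnd than in 2iLIF and NACL without overlap, as did 19% of all genes, and 7 of 8 epiblast marker loci (all but Pou5f1) lay lower, as did 26.4%. H3K4me1 set 6 of 8 PrE markers higher in nEnd, but of the epiblast markers 1 lower (Sox2) and 1 higher (Tbx3), where 17.6% of all genes lay higher and 16.7% lower. GATA6 in nEnd against DP cells was higher at 7 of 8 PrE markers and lower at Col4a1, and among epiblast markers higher at Klf4 and Tbx3 and lower at Sox2 and Esrrb, where 25.7% of all genes lay higher and 5.15% lower. For H3K27ac, of 4 trophoblast markers, Cdx2 and Eomes lay higher in nEnd and Tfap2c lower. H3K4me1 set Tfap2c lower in nEnd and GATA6 set Elf5 higher. For SOX2 in DP against the pluripotent libraries Esrrb lay higher and Tbx3 and Zfp42 lower, and no PrE marker differed. Over all genes 1.58% lay higher and 8.47% lower. Against SOX2+ cells alone Sox2 lay lower too, and again no PrE marker differed, where 2.18% of all genes lay higher and 18.6% lower.

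**Figure D1:**
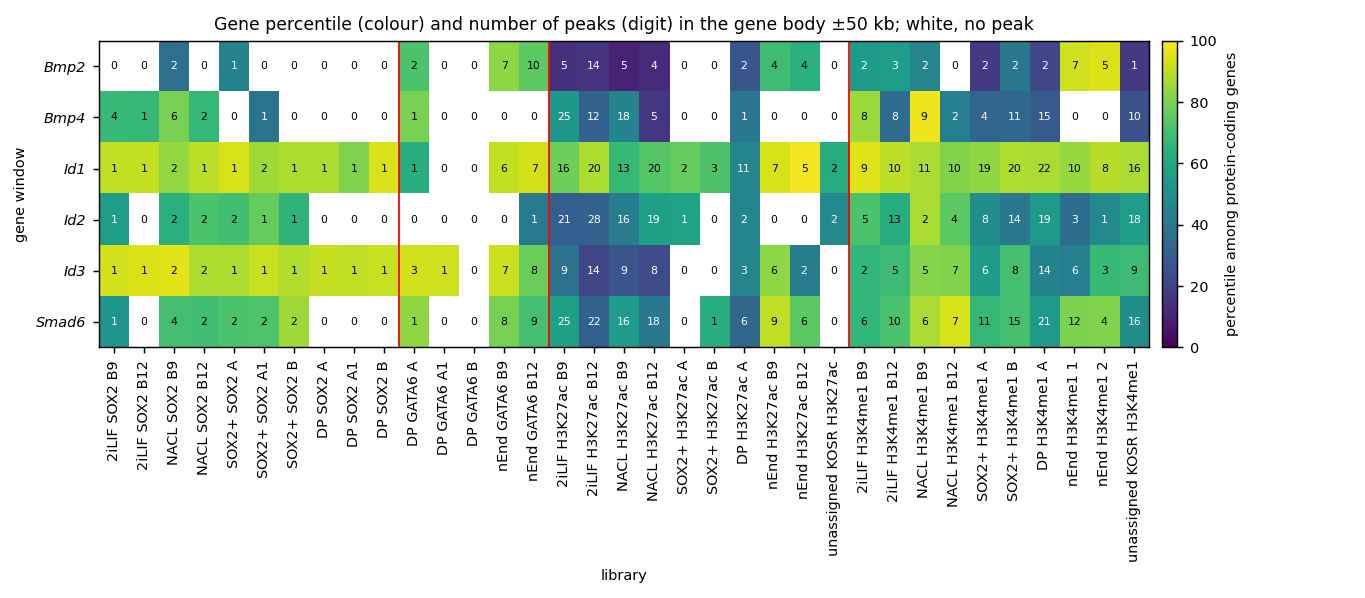
Gene percentile of each of the 6 genes (rows) in each of the 35 libraries (columns, grouped by antibody with red lines between antibodies); the number in a cell is how many peaks the library had in the gene's window, and a white cell has no peak. Id1 and Id3 carry a SOX2 peak in all 10 SOX2 libraries, while Bmp4 has no peak in either nEnd library of any of the 3 antibodies profiled there.

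Merging overlapping SOX2 and GATA6 peaks gave 53 regions in the 6 windows, 11 at Bmp2, 7 at Bmp4, 9 at Id1, 4 at Id2, 10 at Id3 and 12 at Smad6. SOX2 alone was called in 16 of them, GATA6 alone in 32 and both factors, in any of the libraries, in 5. For 44 of the 53 regions the nearest protein-coding start site was that of the gene itself, and most of the exceptions lay in the Id1 window, nearer to Mcts2 or Cox4i2. The other exceptions lay downstream of Bmp4, nearer to Gm15217, and at Id3, nearer to E2f2. Only 2 of the 21 regions with SOX2 had a peak in every one of the 10 SOX2 libraries, 1 at Id3 and 1 at Id1; genome-wide this held for 1100 of 39799 SOX2 regions, or 2.76%. In DP cells SOX2 was called at these 2 regions alone. GATA6 was called in a DP library in 8 regions and in an nEnd library in 35. The region at Id3 was the only one of the 53 with both factors in DP cells, against 2325 of 72577 regions genome-wide, or 3.2%.

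The sequences that the results turn on are shown as the 300 bases around the strongest point of a peak, on the plus strand of mm10. Capitals mark the letters AGATAA or their complement TTATCT, the core that GATA factors recognise, and CATTGT or ACAATG, a core recognised by SOX factors. They comprise the region shared by SOX2 and GATA6 at Id3, the region with SOX2 in every library at Id1, the strongest GATA6 region at Id1, the GATA6 region present in both DP and nEnd cells at Bmp2, and the SOX2 region at Id2 that was not called in DP cells.
Id3, chr4:136146810-136147109: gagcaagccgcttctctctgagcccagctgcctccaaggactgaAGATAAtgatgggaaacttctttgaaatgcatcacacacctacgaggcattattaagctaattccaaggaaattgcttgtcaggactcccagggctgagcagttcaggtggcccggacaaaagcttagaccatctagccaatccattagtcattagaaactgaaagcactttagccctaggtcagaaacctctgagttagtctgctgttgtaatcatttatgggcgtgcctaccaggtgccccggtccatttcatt
Id1 SOX2, chr2:152772317-152772616: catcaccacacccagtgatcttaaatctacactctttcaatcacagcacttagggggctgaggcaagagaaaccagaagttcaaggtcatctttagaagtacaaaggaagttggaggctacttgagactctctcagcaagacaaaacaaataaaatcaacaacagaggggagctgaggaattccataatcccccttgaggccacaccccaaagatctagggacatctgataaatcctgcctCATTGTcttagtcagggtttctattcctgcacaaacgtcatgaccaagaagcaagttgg
Id1 GATA6, chr2:152739889-152740188: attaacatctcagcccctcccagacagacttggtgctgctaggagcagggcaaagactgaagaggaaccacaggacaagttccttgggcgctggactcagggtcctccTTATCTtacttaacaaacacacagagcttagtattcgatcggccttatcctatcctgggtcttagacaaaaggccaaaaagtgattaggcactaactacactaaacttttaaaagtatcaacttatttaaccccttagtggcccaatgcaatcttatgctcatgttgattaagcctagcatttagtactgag
Bmp2 GATA6, chr2:133570822-133571121: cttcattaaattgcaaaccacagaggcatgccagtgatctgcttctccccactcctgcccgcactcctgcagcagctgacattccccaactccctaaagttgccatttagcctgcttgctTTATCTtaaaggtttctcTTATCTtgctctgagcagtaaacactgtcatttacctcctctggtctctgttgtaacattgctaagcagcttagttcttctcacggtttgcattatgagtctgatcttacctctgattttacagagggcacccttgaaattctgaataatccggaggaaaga
Id2 SOX2, chr12:25124685-25124984: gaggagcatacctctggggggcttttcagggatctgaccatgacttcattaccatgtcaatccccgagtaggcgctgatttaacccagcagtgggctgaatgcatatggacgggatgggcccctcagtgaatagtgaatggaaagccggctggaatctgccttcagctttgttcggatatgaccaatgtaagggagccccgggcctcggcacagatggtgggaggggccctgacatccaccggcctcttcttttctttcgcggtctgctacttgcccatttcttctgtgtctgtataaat

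The Id3 window, which is centred on SOX2, held 1 GATA core and no SOX core, and the window of the same region centred on GATA6 in DP A (chr4:136146946-136147245) held neither; the Id1 SOX2 window held 1 SOX core, the Id1 GATA6 window 1 GATA core and the Bmp2 window 2 GATA cores, whereas the Id2 window held neither. Across all 37 GATA6 regions near the 6 genes, 25 (67.6%) had the GATA core in such a window, beside 58.7% of all 39791 GATA6 regions of the genome. The SOX core was found in 6 of the 21 SOX2 regions (28.6%) and in 35.4% of all 39799. The BMP-responsive SMAD core GGCGCC occurred in 0 of the 21 SOX2 windows and 2 of the 37 GATA6 windows (5.41%), with 1.85% and 2.06% over all regions.

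**Figure D2:**
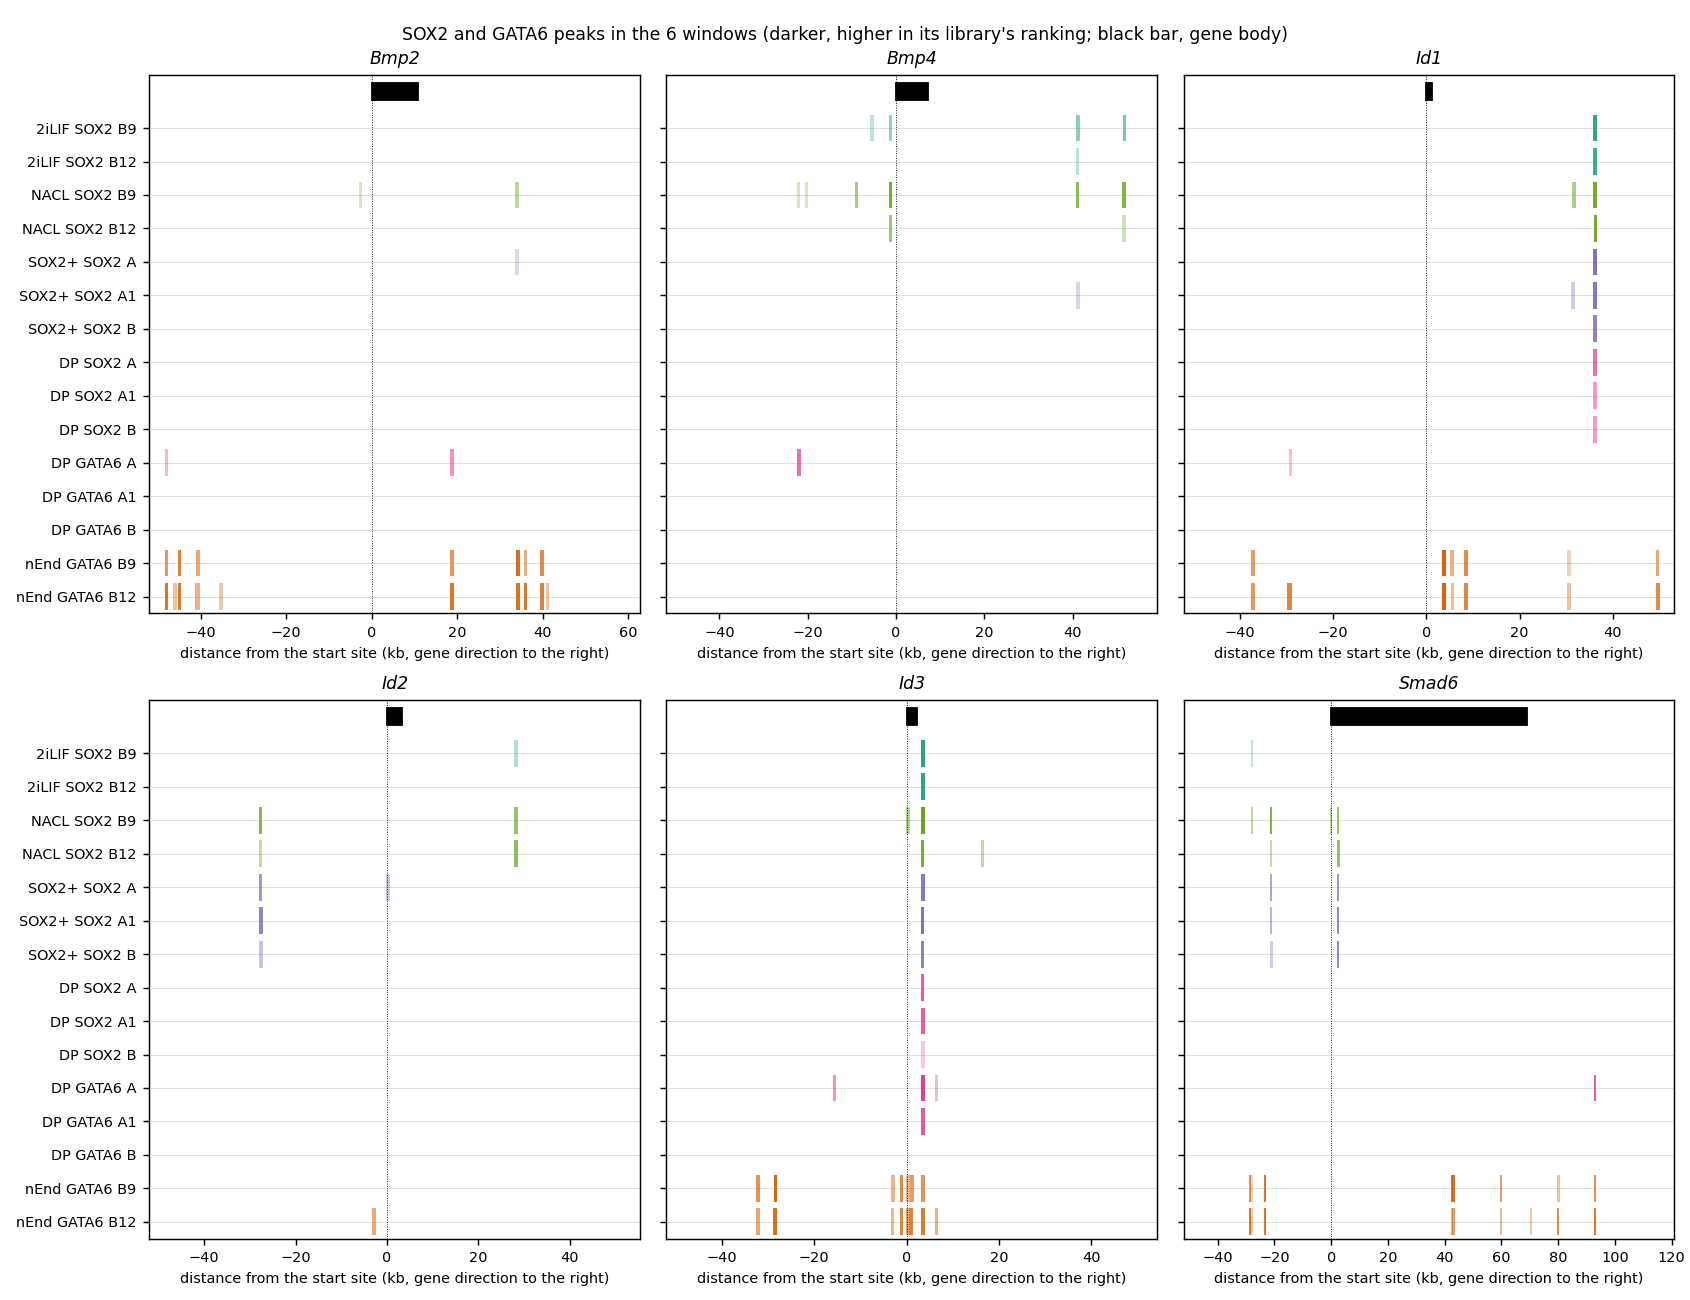
SOX2 and GATA6 peaks around each gene, 1 panel per gene and 1 line per library; the horizontal axis is the distance from the gene's start site in kb, positive in the direction of transcription, and darker marks are peaks of higher rank in their library. The column of marks 3.53 kb downstream of the Id3 start runs through every SOX2 library and on into 4 of the 5 GATA6 libraries.

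Bmp2, a ligand that signals through the same receptors as Bmp4 and that lies alone in its window, was mainly a GATA6 locus. Its gene body spans chr2:133552159-133562885 on the plus strand, and no other protein-coding gene touched its window. GATA6 peaks numbered 7 and 10 in the B9 and B12 nEnd libraries, 2 in DP experiment A and none in DP experiments A1 and B. Both DP peaks fell on regions that nEnd also had. The region 18.8 kb downstream of the start (chr2:133570799-133571082) ranked 4692 of 8316 peaks in DP A, 11403 of 24223 in nEnd B9 and 6164 of 32510 in nEnd B12, so it lay above 35.4%, 51.3% and 80.4% of the peaks of those libraries. The other, 48.0 kb upstream, ranked 6772 of 8316 in DP A. The strongest nEnd GATA6 peak lay 34.2 kb downstream of the start, at rank 2660 in B9 and 4542 in B12. SOX2 appeared at that same place only weakly, at rank 20693 of 29623 in NACL B9 and 16213 of 16819 in SOX2+ A.

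Bmp4 (chr14:46383520-46390669, minus strand), the ligand best known for acting on embryonic stem cells, was the reverse, with SOX2 in 7 regions and GATA6 in 1. SOX2 peaks were called in both 2iLIF libraries (4 in B9, 1 in B12), in both NACL libraries (6 and 2), in SOX2+ A1 (1) and in no other library, so SOX2+ A, SOX2+ B and all 3 DP libraries had none. The region found most often lay 41.2 kb downstream, nearest to the start of Gm15217, so it is not assigned to Bmp4 by position. Its SOX2 peaks ranked 8279 of 13177 and 7327 of 8203 in 2iLIF B9 and B12. In NACL B9 the rank was 9445 of 29623 and in SOX2+ A1 18086 of 20609. These peaks lay above 33.1%, 6.34%, 66.4% and 4.37% of the peaks of their library, the NACL peak being the highest placed. A region at -1.21 kb from the start, just upstream, reached rank 3722 of 29623 in NACL B9 and 7121 of 17111 in NACL B12. The single GATA6 peak, in DP A at rank 3101 of 8316 and about 22 kb upstream, had no counterpart in either nEnd library.

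Id3, which blocks E proteins, carried the region with the most libraries of the whole set (chr4:136146661-136147398, 3.53 kb downstream of the start, intergenic with Id3 as the nearest gene). SOX2 was called there in all 10 libraries and GATA6 in 4 of 5. In 2iLIF the SOX2 peak ranked 1132 of 13177 (B9) and 828 of 8203 (B12), and in NACL 629 of 29623 (B9) and 2116 of 17111 (B12). In SOX2+ cells it ranked 1991 of 16819 (A), 1182 of 20609 (A1) and 1852 of 10513 (B). Pluripotent libraries thus placed it among their stronger peaks, above 81.0% of the others at least. In DP cells it ranked 1217 of 4859 (A), 1407 of 5320 (A1) and 1304 of 1378 (B), so it was near the bottom of the short list of DP experiment B. GATA6 ranked 874 of 8316 in DP A and 945 of 3821 in DP A1, was not called in DP B, which had 1391 peaks, and ranked 10248 of 24223 and 7278 of 32510 in nEnd B9 and B12. Within their own lists the DP libraries A and A1 therefore placed GATA6 here above 88.8% and 72.6% of peaks, and the nEnd libraries above 56.2% and 76.9%.

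The same stretch was covered by H3K27ac peaks in both 2iLIF and both nEnd libraries and in none of the NACL, SOX2+ and DP libraries. H3K4me1 peaks covered it in both SOX2+ libraries, the DP library, 1 NACL and 1 nEnd library, and in neither 2iLIF library. GATA6 was called in nEnd in 8 regions around Id3, that one included, and in 7 of them in both libraries. The strongest lay 28.4 kb upstream, at rank 1103 of 24223 in B9 and 3828 of 32510 in B12, with no SOX2 peak in any library and H3K27ac in both nEnd libraries and no other.

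**Figure D3:**
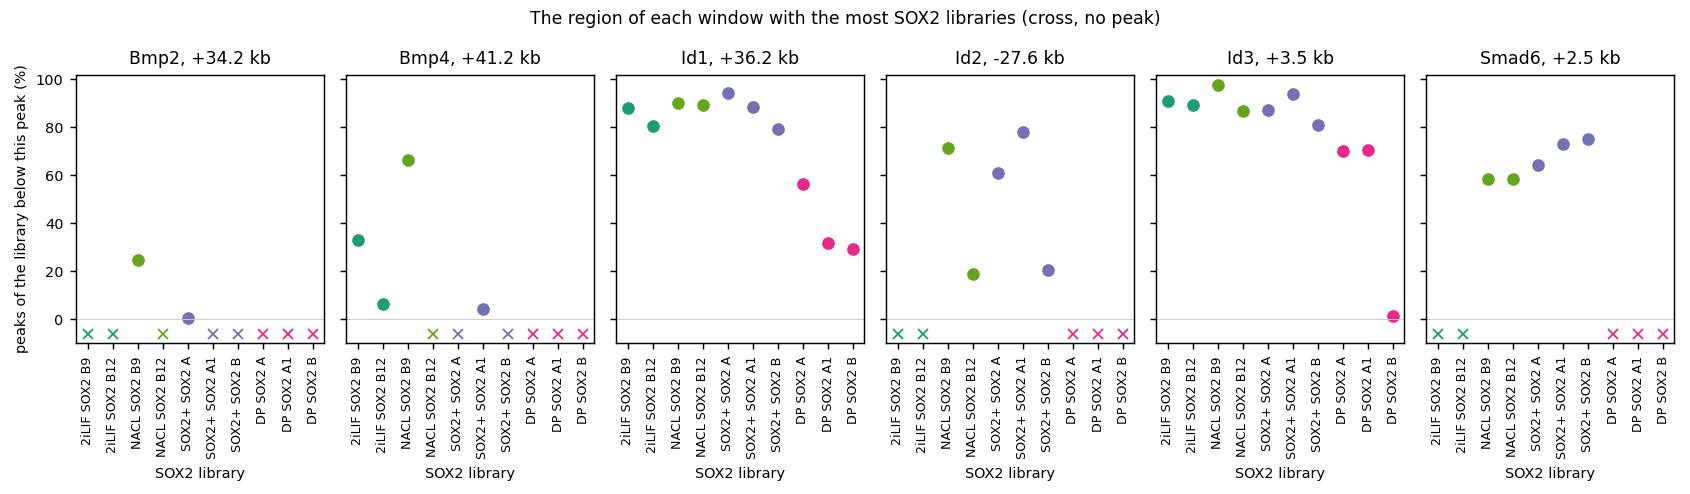
For each gene the region with the most SOX2 libraries is shown, and for each of the 10 SOX2 libraries the percent of that library's peaks that were lower than the peak there; a cross marks a library with no peak. The Id3 and Id1 regions have a point in all 10 libraries, the Id2 and Smad6 regions in the 5 NACL and SOX2+ libraries, and the DP values are limited by lists of 1378 to 5320 peaks.

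Id1 (chr2:152736251-152737410, plus strand) showed separate SOX2 and GATA6 regions. The SOX2 region called in all 10 libraries lay 36.2 kb downstream of the start (chr2:152772221-152772743) in intergenic sequence whose nearest start site is that of Cox4i2, a subunit of cytochrome oxidase, so it is not assigned to Id1 by position. Its SOX2 peaks ranked 1519 and 1492 in 2iLIF B9 and B12, 2768 and 1703 in NACL, and 942, 2188 and 2003 in SOX2+ A, A1 and B, above 79.4% of the peaks of its library at least. In DP A, A1 and B they ranked 1744 of 4859, 3219 of 5320 and 844 of 1378, which is above 56.6%, 31.6% and 29.5% of peaks. No GATA6 library had a peak there, and the 2iLIF, NACL, nEnd and DP libraries, but neither SOX2+ library, had H3K27ac over it. The strongest GATA6 region stood 3.83 kb downstream of the Id1 start (chr2:152739781-152740382), with Id1 the nearest gene. It was among the top peaks of nEnd, rank 1263 of 24223 in B9 and 827 of 32510 in B12, and was called in no DP library. H3K27ac covered it in both nEnd libraries, in 1 of 2 NACL libraries and in neither 2iLIF library. The only DP GATA6 peak in the window, in DP A, lay 29.1 kb upstream over an exon of the neighbour H13 at rank 7391 of 8316.

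Id2 (chr12:25093799-25097140, minus strand) had the fewest TF regions of the 6 genes. Its most frequent SOX2 region, 27.6 kb upstream (chr12:25124564-25124979), was called in both NACL and all 3 SOX2+ libraries and in none of 2iLIF or DP. The ranks were 8130 of 29623 and 12320 of 17111 in NACL B9 and B12, and 6023 of 16819, 4147 of 20609 and 7413 of 10513 in SOX2+ A, A1 and B. A second region, 28.2 kb downstream, carried SOX2 in 2iLIF B9 and both NACL libraries. GATA6 was called once, in nEnd B12, at -2.79 kb from the start and at rank 19113 of 32510.

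Smad6 encodes an inhibitory SMAD that blocks receptor-activated SMADs and is itself induced by BMP signals; its body spans chr9:63953076-64022059 on the minus strand. It had 2 SOX2 regions with the distribution seen at Id2, in both NACL and all 3 SOX2+ libraries and not in 2iLIF or DP. The region 2.52 kb inside the gene, in an intron, ranked 11618 of 29623 and 6302 of 17111 in NACL B9 and B12, and 5522 of 16819, 4998 of 20609 and 2377 of 10513 in SOX2+ A, A1 and B. The region 21.2 kb upstream ranked 5955 and 12320 in NACL and 7952, 11809 and 8359 in SOX2+. GATA6 was called in 9 regions, all 9 of them in nEnd and 8 in both nEnd libraries. Of these, DP A alone shared 1, which lies 93.0 kb downstream of the start in an intron of Gm36033 (chr9:63928832-63929218), at rank 2414 of 8316 against 8943 and 6803 in nEnd B9 and B12. The highest-ranking nEnd GATA6 peaks over both libraries lay 23.4 kb upstream, at 4386 of 24223 and 5785 of 32510, inside H3K27ac peaks of both nEnd libraries.

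Over the 6 windows, 6 of the 8 regions with GATA6 in DP cells also had GATA6 in nEnd, where 61.6% of such regions did genome-wide. Of the 28 regions with GATA6 in both nEnd libraries, 22 had H3K27ac in both nEnd libraries and 15 had H3K4me1 in both, where the genome-wide shares were 58.5% and 52.6%. DP experiment B had no GATA6 peak in any of the 6 windows and SOX2 only at Id1 and Id3, and its lists, with 1378 SOX2 and 1391 GATA6 peaks, were the shortest of their antibody.

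The first comparison asked whether SOX2 at these genes differed between DP cells and the pluripotent populations (2iLIF, NACL and SOX2+, 7 libraries), in which GATA6 was not profiled here. None of the 6 genes was set apart, apart meaning that the percentiles of the groups did not overlap and that each library of the higher group had a peak; over all genes 1.58% lay apart with DP higher and 8.47% with DP lower. Id3 stood at a mean percentile of 91.0 ± 0.589 (SD, n = 3) in DP and 91.4 ± 3.42 (SD, n = 7) in pluripotent cells, with a difference of -0.353 (adjusted p = 0.935 by exact two-sided permutation test). Id1 stood at 87.6 ± 6.66 in DP and 89.0 ± 3.33 in pluripotent cells (adjusted p = 0.799, exact permutation test). With the stronger 50% of the peaks of each library the differences were -29.7 for Id1 (adjusted p = 0.128, exact permutation test) and -14.95 for Id3, against -1.36 and -0.353 with all peaks. The high percentiles of Id1 and Id3 in DP go with lists in which most genes had no peak (those genes tie at 36.4 to 45.6), and their ranks among peaks are those given above. Bmp2, Bmp4, Id2 and Smad6 had no SOX2 peak in any DP library and a peak in 2, 5, 6 and 6 of the 7 pluripotent ones. The lowest p belonged to Id2 and Smad6, with differences of -22.4 and -25.2 (exact permutation p = 0.0667, adjusted p = 0.15 for both; the smallest possible p is 0.0167). Each had a single pluripotent library without a peak, 2iLIF B12, and without that library both genes were apart. Counting only lower values gave -56.7 for Id2 and -59.6 for Smad6, and with a flank of 10 kb the sign turned for Id2 (4.12). Limiting each library to 1378 peaks gave -0.279 for both. No library then had a peak at either gene, so that value compares ties only.

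Within KOSR, where clone, medium and experiment were shared, DP cells were set against SOX2+ cells. Id2 had percentiles of 69.8, 76.2 and 65.0 in SOX2+ A, A1 and B, while no DP library had a peak, a difference of -30.7. Smad6 had 71.7, 72.4 and 85.7 in SOX2+ and no peak in DP, a difference of -36.9. Both genes were therefore apart with DP lower, 2 of 6, where 18.6% of all genes were apart in that direction and 2.18% in the other. With 3 libraries on each side the exact permutation p cannot go below 0.1, the value both genes had, so neither difference can pass 0.05. When each library was limited to its 1378 strongest peaks, the length of the shortest DP list, no library kept a peak at either gene. Neither gene was then apart, and both differences, -0.0936, compare tied values only. The Id2 call also ended with a flank of 10 kb (-3.14) and with the stronger 50% of peaks (-16.8). These sizes depend on the tied value given to genes without a peak: with percentiles counting only lower values they were -69.3 for Id2 and -75.8 for Smad6. The part of list length in the absence of SOX2 at Id2 and Smad6 in DP cells was not tested beyond this. Id1, Id3 and the ligands were not apart. Id3, which had a peak in every DP library, differed by 1.65 and became apart with DP higher when genes were ranked by the summed coverage of their peaks (7.84) and without SOX2+ A1 (2.85), while the stronger 50% of peaks gave -12.9 and, for Id1, -29.9. With 1378 peaks per library the Id3 difference was 15.1, but Id3 was not apart. Bmp2 and Bmp4 had a SOX2 peak in 1 of 3 SOX2+ libraries each, A for Bmp2 and A1 for Bmp4.

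**Figure D4:**
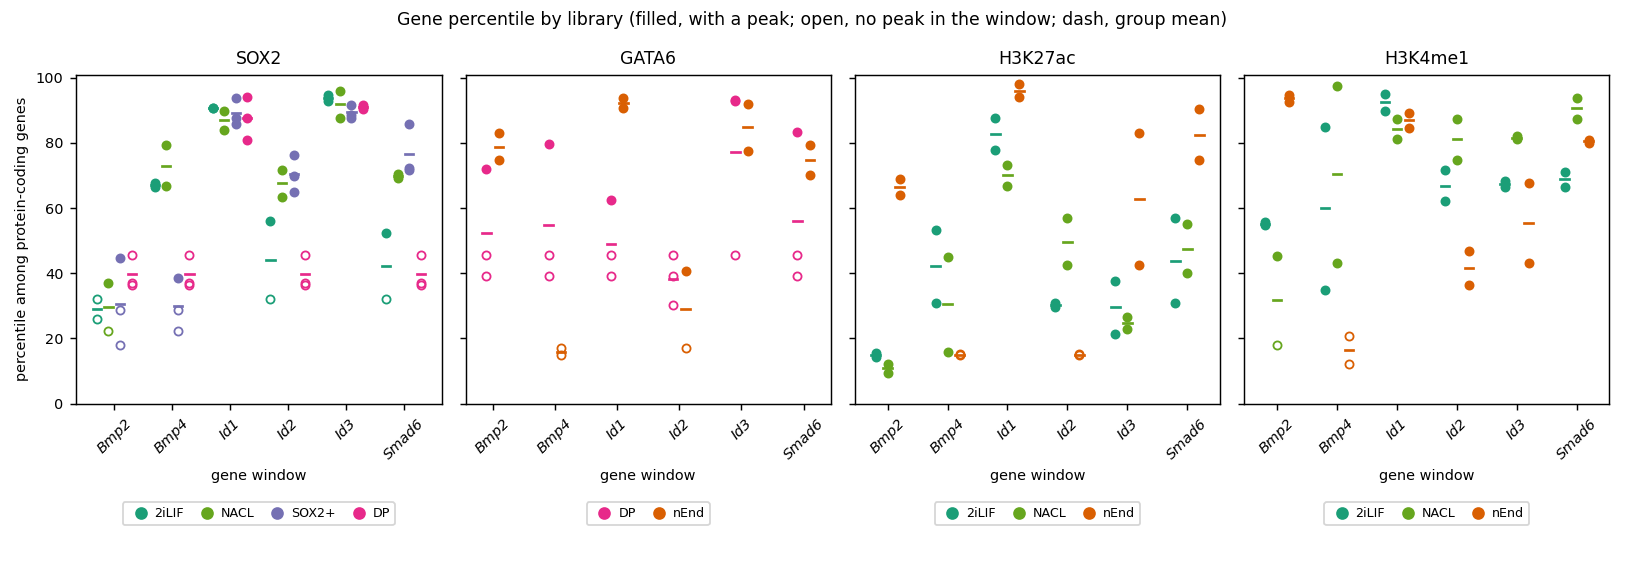
Gene percentile of each gene in every library of the 5 comparisons; filled points have a peak in the window, open points have none, and dashes are group means. Within a library all genes without a peak tie at one value, so open points of Id2 and Smad6 in the DP SOX2 libraries stand at the same 3 heights, from 36.4 to 45.6, and carry no peak strength.

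For GATA6, nEnd was compared with DP. Id1 had percentiles of 90.8 and 93.7 in nEnd B9 and B12 and of 62.5 in DP A, with no peak in DP A1 and B, a difference of 43.1. Bmp2 had 83.0 and 74.8 in nEnd and 71.9 in DP A, again with no peak in A1 and B, a difference of 26.7. These 2 of 6 genes lay apart with nEnd higher, where 25.7% of all genes did, and none lay apart with nEnd lower, where 5.15% did. By the order of percentiles alone Bmp4 would be apart too, with a difference of -38.8, but only DP A had a peak there. Id3 was high in both populations, at 92.0 and 77.6 in nEnd and 93.3 and 92.8 in DP A and A1, and DP B had no peak. Without DP B the Id3 difference went from 7.51 to -8.28, and Id3 was then apart with nEnd lower. Smad6 (79.5 and 70.1 in nEnd, 83.3 in DP A) overlapped between groups, at a difference of 18.8, and Id2 had a peak in nEnd B12 only. Smad6 became apart with nEnd higher with a flank of 10 kb (35.4), with summed coverage (35.0) and without DP A (32.4). The exact permutation p was 0.2 for Bmp2 and Id1, the smallest this design allows. With 1391 peaks in each library only Id1 remained apart, at a difference of 46.9. No library then had a peak at Bmp2, so its difference of -0.175 compares tied values only. Bmp2 was also no longer apart with a flank of 10 kb (19.9), nor Id1 with 100 kb (15.9), and with percentiles counting only lower values the differences were 55.2 for Bmp2 and 71.6 for Id1.

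H3K27ac set nEnd against the naive media 2iLIF and NACL. All 6 genes were apart, 4 with nEnd higher and 2 with nEnd lower, where 19% and 26.4% of all genes were; the exact permutation p was 0.133 for each gene, the smallest possible. The naive libraries held 210904 to 401853 H3K27ac peaks and the nEnd libraries 20072 and 21394, and with 20072 peaks in each library 5 of the 6 remained apart, while the Bmp4 groups overlapped at a difference of -17.4. With a flank of 10 kb both calls with nEnd lower ended (Bmp4 -8.52, Id2 -2.43), and the 4 with nEnd higher remained, Bmp2 at 32.1, Smad6 at 24.4, Id3 at 48.9 and Id1 at 42.2.

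Bmp2 had percentiles of 69.1 and 63.9 in nEnd B9 and B12 against 14.4, 15.6, 9.41 and 12.2 in 2iLIF B9 and B12 and NACL B9 and B12, a difference of 53.6. Its nEnd libraries had an H3K27ac peak over the start, 7046 bp wide in B9 and 8609 bp in B12 and of middling rank (14126 of 21394 and 11697 of 20072), and their strongest peak in the window, rank 3582 and 3966, lay over the GATA6 region 34.2 kb downstream. Of the naive libraries, 2iLIF B12 and NACL B9 also had a Bmp2 start peak, 1674 and 1609 bp wide, at rank 331438 of 401853 and 87365 of 224091. SOX2+ cells had no H3K27ac peak at Bmp2. Bmp4 and Id2 had no H3K27ac peak at all in nEnd. Bmp4 had 25, 12, 18 and 5 peaks in 2iLIF B9 and B12 and NACL B9 and B12 and percentiles of 53.3, 30.9, 45.1 and 15.9, the last just above the 14.9 and 15.2 of the nEnd libraries without a peak. Id2 had 21, 28, 16 and 19 peaks and percentiles of 29.7, 30.9, 42.6 and 56.9, with differences of -25.0 for Id2 and -21.3 for Bmp4, or -38.6 and -34.6 with percentiles counting only lower values.

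Id3 had percentiles of 83.0 and 42.4 in nEnd and 37.7, 21.5, 26.6 and 22.99 in the naive libraries, a difference of 35.5. Its nEnd start-site peak was broad, 13985 bp in B9 at rank 1631 and 10155 bp in B12 at rank 9021, and included the region shared by SOX2 and GATA6. The 2 nEnd libraries differed widely here: the difference was 15.2 without nEnd B9 and 55.8 without nEnd B12, and the lower of them still lay above the naive range. Id1 stood at 94.0 and 98.2 in nEnd and 77.8, 87.7, 66.9 and 73.2 in the naive libraries, a difference of 19.7. Those values were set by peaks near its neighbours: in nEnd the strongest peaks of the window were centred 52.8 and 65.7 kb downstream, by Bcl2l1, and in 3 of the 4 naive libraries 40.2 to 49.3 kb upstream, by H13 and Mcts2. Over the Id1 start itself nEnd had peaks of 11594 bp (rank 1515, B9) and 12171 bp (rank 1681, B12), which reached the GATA6 region 3.83 kb downstream, and of the naive libraries only NACL B12 had a peak there, at rank 90972 of 210904. Smad6 stood at 90.3 and 74.8 in nEnd and 56.9, 30.9, 55.2 and 40.0 in the naive libraries, a difference of 36.8. Its strongest nEnd peaks lay 23.2 kb (B9, rank 887) and 29.9 kb (B12, rank 2454) upstream, while a peak over the start was called in nEnd B9 (rank 8219 of 21394) but not in nEnd B12, and in 2iLIF B9 (rank 89877 of 232779), NACL B9 (62012 of 224091) and NACL B12 (34761 of 210904). With 100 kb on either side of the gene only Bmp2, Id1 and Smad6 were apart, and the sign turned for Id2 (7.74) and Id3 (-2.74).

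**Figure D5:**
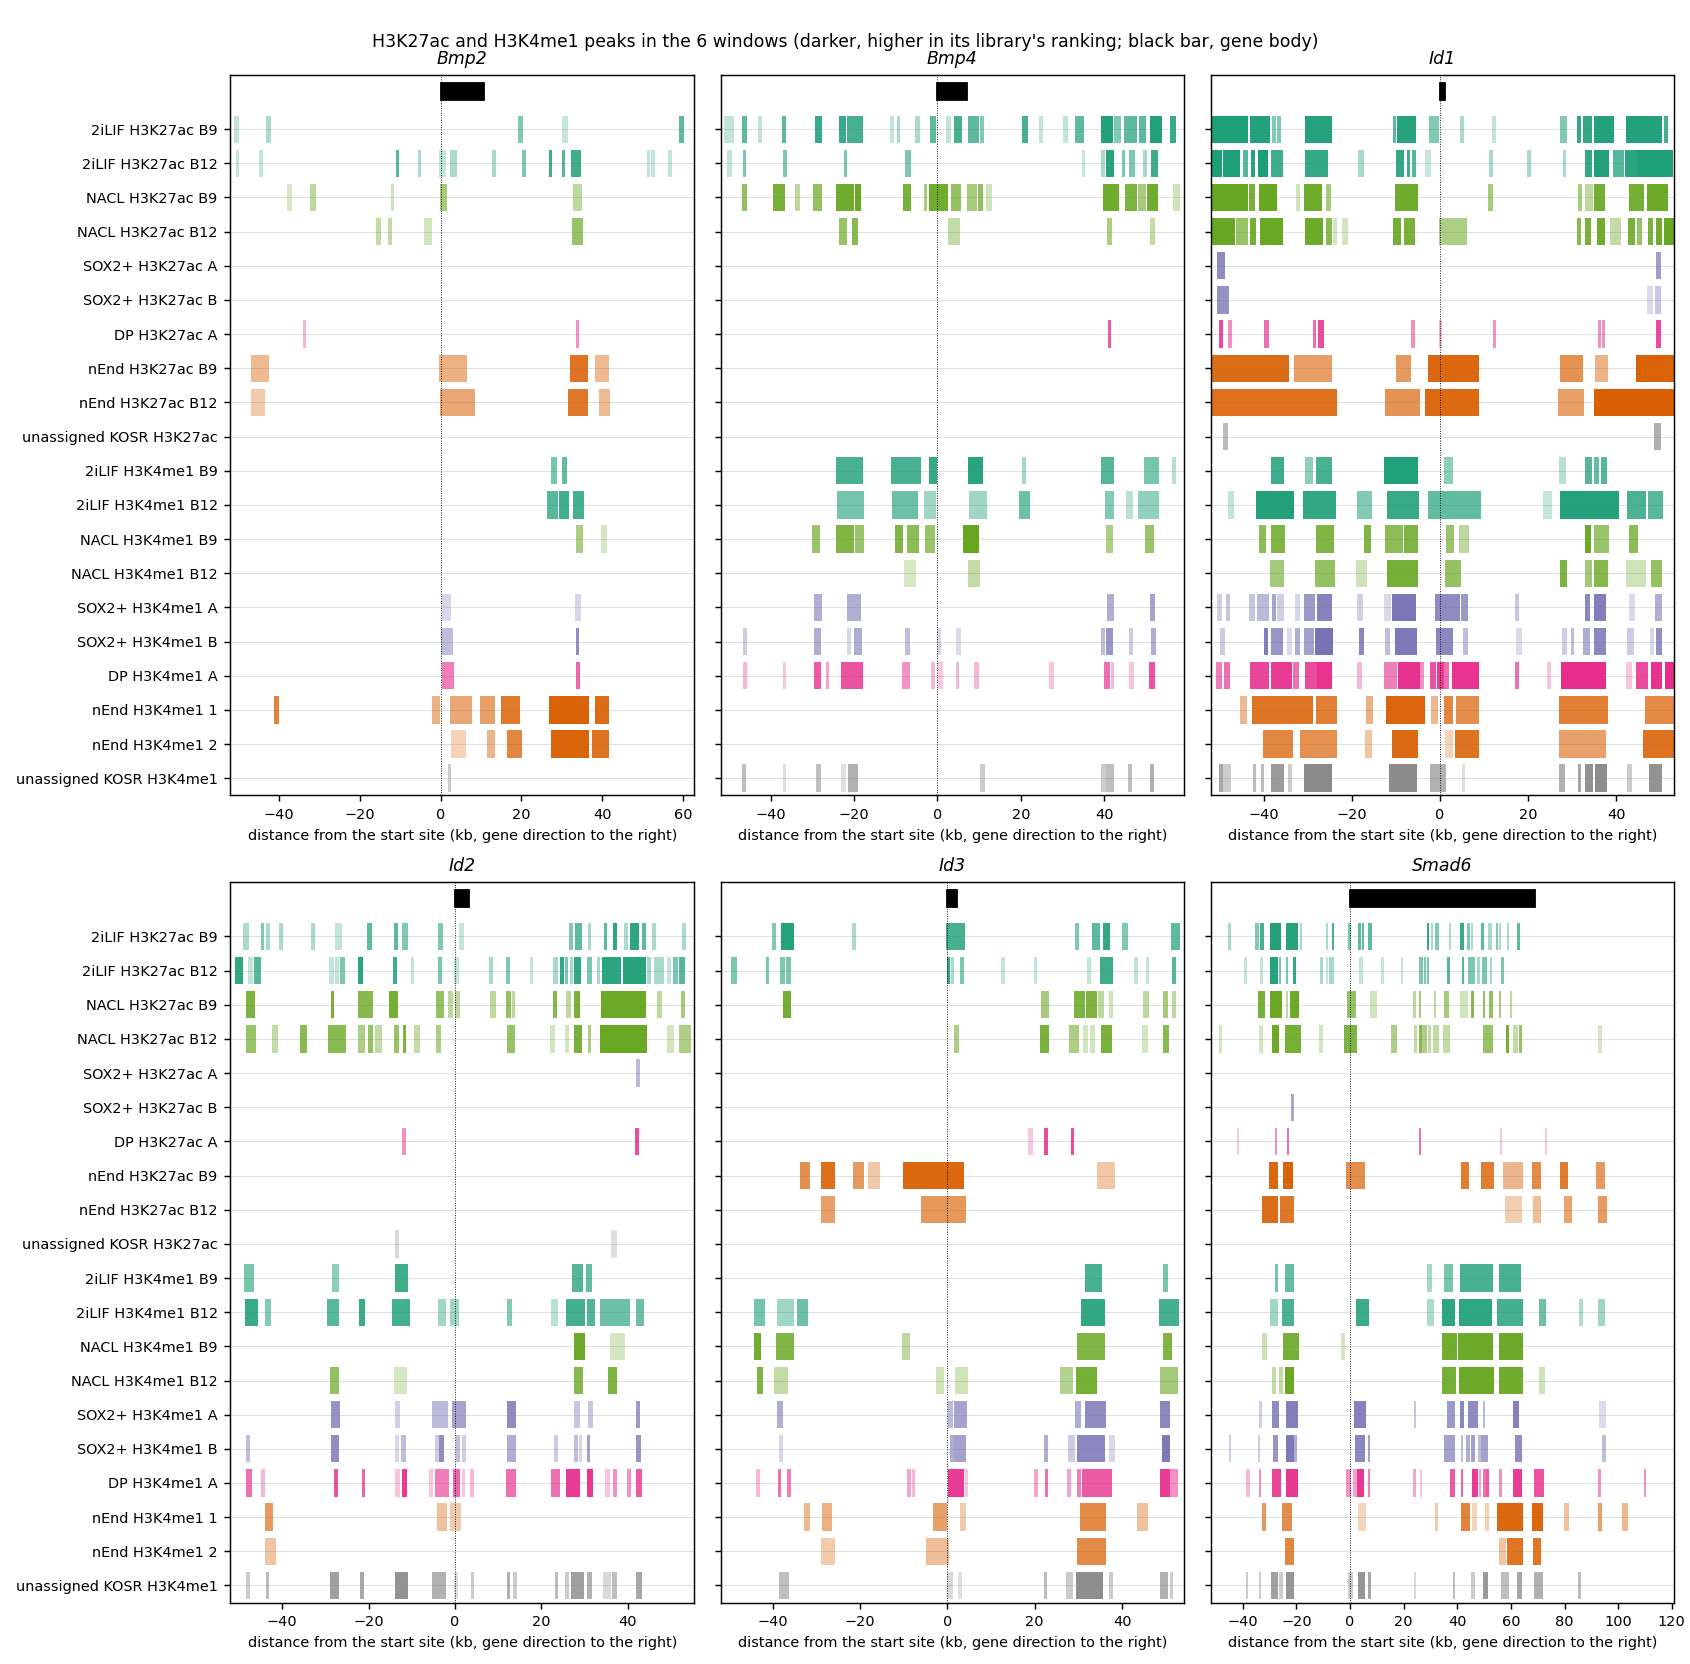
H3K27ac and H3K4me1 peaks around each gene, 1 line per library, against the distance from the start site in kb, darker for peaks of higher rank within the library. In nEnd the Bmp4 window is empty for both marks and the Id2 window holds H3K4me1 alone, while broad nEnd H3K27ac peaks cover the starts of Bmp2, Id1 and Id3 in both libraries.

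In the KOSR populations H3K27ac peaks were sparse at these genes, in libraries with 13514 and 14722 peaks for SOX2+ and 76260 for DP. SOX2+ A and B had 2 and 3 peaks in the Id1 window, SOX2+ A had 1 at Id2, SOX2+ B had 1 at Smad6, and neither had any at Bmp2, Bmp4 or Id3. The single DP library had between 1 peak, at Bmp4, and 11, at Id1, and was the only one of these 3 with a peak over the Id1 start (rank 49076 of 76260).

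H3K4me1 was compared between the same populations. Bmp2 was apart with nEnd higher (1 of 6, with 17.6% of all genes), and Bmp4 and Id2 with nEnd lower (2 of 6, with 16.7%); the exact permutation p was 0.133 for each, the smallest possible. Bmp2 had percentiles of 92.6 and 94.8 in nEnd against 55.0, 55.6, 45.5 and a library without a peak (NACL B12), a difference of 50.2. Its strongest nEnd peaks, 9858 and 9435 bp wide and at ranks 850 of 42816 and 648 of 18627, were centred 31.7 and 31.9 kb downstream and spanned the GATA6 region there. Bmp4 had no H3K4me1 peak in nEnd and percentiles of 85.1, 34.9, 97.6 and 43.2 in the naive libraries, a difference of -48.8, and with 18627 peaks in each library the groups overlapped at a difference of -42.1. The high naive values were those of clone B9 in both media. Id2 had 36.3 and 47.0 in nEnd and 71.6, 62.3, 87.3 and 74.8 in the naive libraries, a difference of -32.4. Within a flank of 10 kb the Id2 difference turned to 4.21. Id1 (86.9 ± 3.27 in nEnd and 88.4 ± 5.81 in naive media), Id3 (55.5 ± 17.3 and 74.5 ± 8.26) and Smad6 (80.6 ± 0.618 and 79.7 ± 13, SD, n = 2 and 4) overlapped. At Id3 the overlap rested on nEnd replicate 2 (67.8), as replicate 1 (43.3) lay below the naive range of 66.35 to 82.0. A tag in the sample titles was shared by nEnd replicate 2 and both NACL libraries, and within it the differences were 63.2 for Bmp2, -49.7 for Bmp4 and -34.1 for Id2, with 37.3, -47.9 and -30.7 among the titles without it.

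The other 36 BMP pathway genes examined, 6 ligands, 7 receptors, 5 SMADs, 10 inhibitors, 5 targets and 3 E proteins, did not move as a block. For H3K27ac 5 lay apart with nEnd higher and 8 with nEnd lower, beside 19% and 26.4% of all genes, and the median percentile was 40.6 in nEnd and 43.2 in naive media. Those highest in nEnd relative to naive media were Bmp6, a ligand (95.4 against 33.3), the inhibitory Smad7 (92.1 against 59.5) and the signal transducer Smad5 (64.4 against 36.7). Those lowest were Gdf3, a ligand of the same superfamily that had no nEnd peak and 94.1 in naive media, Smad1 (67.5 against 95.8) and the pseudoreceptor Bambi (no nEnd peak, 42.1 in naive media). For H3K4me1 7 lay higher and 4 lower, beside 17.6% and 16.7% of all genes. Upwards they were led by Atoh8 (80.9 against 34.5), Nbl1 (58.9, with no naive peak) and Acvr2a (68.2 against 28.9). The lowest naive values of Atoh8 (15.3) and Acvr2a (17.9) equalled those of genes without a peak. Downwards they were led by Id4, Fst and Bmp7, which had no nEnd peak. For GATA6 8 lay higher in nEnd than DP and 1 lower, beside 25.7% and 5.15% of all genes. The antagonist chordin, Chrd, stood at 97.7 in nEnd with no DP peak and Smad1 at 87.9 with no DP peak. The receptor Acvr1 stood at 87.8 in nEnd and 77.2 in DP A, with no peak in DP A1 and B, whereas the E protein gene Tcf12 stood at 73.2 against 92.6. SOX2 at the receptor gene Bmpr1b was lower in DP than in the pluripotent libraries (no DP peak, 75.2), the only one of the 36 apart in that comparison, beside 8.47% of all genes with DP lower. Against SOX2+ cells 4 were apart, all with DP lower (18.6% of all genes), namely Bmpr1b, Bmp5, Bmp7 and Smad1.

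The genes whose percentile ran most like that of a member over the 33 assigned libraries, at least 1 Mb away, were Oit3, Otulinl and Gch1 for Bmp2 (Pearson r = 0.86 each), Zc3h13 for Bmp4 (0.82), Pfdn1 and Gpr37l1 for Id1 (0.87 each), BB014433 for Id2 (0.81), Sdk1 for Id3 (0.88) and Duox2 for Smad6 (0.83). The points share libraries and the tied values of genes without peaks, so these values are a description only.

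RefSeq promoter sequences of 300 bases on GRCm38 were found for Bmp4, Id2, Id3 and Smad6. They are placed by the RefSeq start, and those of Id2 (chr12:25096043-25096342) and Id3 (chr4:136143572-136143871) lie wholly downstream of the annotated start used here. None of the 4 held the GATA or SOX core, and Id2 alone held the SMAD core GGCGCC, once; 11.9% of all 32851 RefSeq promoters held it on either strand. TF peaks over the annotated start of a gene were rare: only SOX2 at Smad6 in NACL B9 (rank 20693 of 29623) and GATA6 at Id3 in nEnd B12 (rank 17157 of 32510) overlapped it.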

How the data were processed

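CUT&RUN peak lists were analysed for 35 of the 53 samples; the 18 IgG controls were not used here. The build was GRCm38/mm10, and the tools that the submitters' processing notes name are cutadapt 1.18, Bowtie2 2.3.4.1, SAMtools 1.9, Picard 2.9.1, bedtools 2.27.1, deepTools 3.2.0 and SEACR, the peak caller, which the methods say was run with the IgG library of the same experiment and condition as its control. The deposited lists have 6 columns and hold signal (summed coverage per peak in column 4 and the highest value in column 5) in whole numbers on a scale that differs between libraries. The methods give relaxed calling for TFs and stringent calling for histone marks, and the deposited names the reverse, so which was used is not settled.

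Windows were gene bodies of GENCODE M21 with 50 kb on either side, and a peak counted with an overlap of at least 1 bp. TF regions were peaks of the 15 assigned SOX2 and GATA6 libraries merged where they overlapped. The gene percentile was the mid-rank of a gene's highest column 5 among 21911 protein-coding genes. Genes without a peak tie, and their value rises as a list gets shorter; hence calls required, beyond groups that do not overlap, a peak in every library of the higher group, a condition added after the values were seen, which among the 6 genes removed Bmp4 for GATA6. The condition entered the calls but not the permutation test. In that test 7361 of 21911 genes had an adjusted p under 0.05 for SOX2 in DP against pluripotent cells. A gene can pass on tied values alone: Id1 with a flank of 10 kb had no SOX2 peak and an adjusted p of 0.0309 (exact permutation). Differences were tested by exact two-sided permutation tests of the library labels with Benjamini-Hochberg adjustment over all genes; only SOX2 in DP against pluripotent cells can pass 0.05. Nothing in the labels says that libraries are separate cultures beyond clone and experiment, so p-values measure the spread between these libraries.

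Replicate names are shared by clone (H3K27ac) or experiment (SOX2 in KOSR). Deviations from group means over all genes correlated at 0.040 to 0.098 between libraries of the same name, and no block was used in the reported values. The B9 and B12 correlations of H3K27ac are equal by construction, as each group held 2 libraries. Correlations over all genes do not show whether pairing matters at the 6 genes. Motifs were searched on both strands in windows of 300 bases centred on the highest point of the strongest peak of each region, and the genome letters were equal to 658 of 658 RefSeq promoters checked (GRCm38.p6). Regions printed with ranks were, in each window, those with the most SOX2 and the most GATA6 libraries and those with both factors in DP cells; others were described after their values were seen. The 6 genes, the pathway and marker lists and the tests were chosen with earlier results of these data known. Python 3.11.15, numpy 2.4.6, pandas 2.3.3, matplotlib 3.10.9 and pysam 0.24.0 were used, and the scripts were tested on simulated data.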

Additional observations from a re-analysis of the deposited data

Results flagged for a closer look

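The libraries of contradictory label, H3K27ac and H3K4me1 from KOSR with DP in the title and SOX2+ in the source name, enter no comparison and still showed signal at the 6 genes, and the IgG controls were not analysed here. The H3K27ac library, with 19185 peaks, had a peak in the window of 2 of the 6 genes. These were Id1 (2 peaks, the strongest at rank 6314) and Id2 (2 peaks, rank 14497). The H3K4me1 library, with 94492 peaks, had a peak in all 6 windows, from 1 at Bmp2 to 18 at Id2. Tests for a single outlying library in groups of 4 and 7 libraries found none among the 18 group and gene pairs examined.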

How the results depend on the processing

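Of 432 differences per gene under other settings 43 had the opposite sign to the reported one, 12 for SOX2 in DP against pluripotent cells, 10 against SOX2+, 8 for GATA6, 2 for H3K27ac and 11 for H3K4me1. Of 85 counts 71 stayed within 1.5 times, but a count that stays can hold other genes. The counts here are by the order of percentiles alone, which gives 0, 2, 3, 6 and 3 genes apart in the order of the comparisons above. For SOX2 in DP against pluripotent cells the count became 1 with a flank of 10 kb (Id1, which has no SOX2 peak within that distance), 1 with 100 kb (Bmp2) and 1 with the stronger 50% of peaks (Bmp2, without a DP peak, difference 11.8, adjusted p = 0.0359 by exact permutation), and 0 to 2 on leaving out 1 library, the 2 being Id2 and Smad6 without 2iLIF B12. Against SOX2+ it became 4 with 10 kb, where Id2 was lost and Bmp2, Bmp4 and Id1 were called with DP higher although DP cells had no peak there, 4 with 100 kb, 3 with summed column 4, where Id3 was added with DP higher, 0 with 1378 peaks per library, and 2 to 4 on leaving out 1 library, 4 without SOX2+ A1 (Bmp4 and Id3 added). For GATA6 it became 1 with 1391 peaks per library and ranged from 3 to 4 on leaving out 1 library; it stayed at 3 with both other flanks, without Bmp2 at 10 kb and without Id1 at 100 kb. For H3K27ac it became 3 with 100 kb and 4 with 10 kb, without Bmp4 and Id2. For H3K4me1 it became 6 both within and outside the tag in the sample titles, comparisons added after the data were seen in which 1 library faces 2. The TF regions fell from 53 to 31 with the stronger 50% of peaks and to 22 with 10 kb, and the 1 region with both factors in DP cells remained under each alternative tried, including without experiment B.

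Among differences that were called or could pass the test, signs changed for SOX2 in DP against pluripotent cells with 10 kb (Id1 9.71, Id2 4.12), 100 kb (Id1 0.906), summed column 4 (Id1 4.22, Id3 4.42), percentiles counting only lower values (Bmp2 -11.5), 1378 peaks per library (Bmp2 -0.279, Id1 9.03, Id3 2.85), and without DP A1 (Id1 2.0), 2iLIF B12 (Id3 0.225) or NACL B9 (Id3 0.417); leaving out each library in turn gave -4.66 to 2.0 for Id1 and -0.965 to 0.417 for Id3. They also changed for called differences of GATA6 with 1391 peaks (Bmp2 -0.175), of H3K27ac with 100 kb (Id2 7.74, Id3 -2.74) and of H3K4me1 with 10 kb (Id2 4.21). Of the others, the largest were for SOX2 against SOX2+ Bmp2 (-14.8) and Bmp4 (-12.4) with percentiles counting only lower values and Id3 (-12.9) with the stronger 50%, for GATA6 Id2 (30.03 at 100 kb, 20.1 counting only lower values), and for H3K4me1 Id3 (19.6 at 10 kb) and Smad6 (-13.6 with summed column 4). With 1378 SOX2 or 1391 GATA6 peaks per library no library kept a Bmp2 peak, so those Bmp2 values compare ties. The cause of the sign changes was not tested. With the replicate name as a block 2 genes (SOX2, DP against SOX2+) and 6 genes (H3K27ac) were apart, and pairing changed no call. Read depth is unknown, and DP lists of 1378 to 8316 peaks limit what absence in DP cells can mean.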
